A study of Mus musculus with 6 samples.

Results

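The VEGF family was followed through whole mouse adrenal glands as 10 genes out of the 54532 in the deposited count table. They were chosen by symbol: 5 ligands (Vegfa, Vegfb, Vegfc, Vegfd and Pgf) and 5 receptors, made up of the kinases Flt1, Kdr and Flt4 and the neuropilin co-receptors Nrp1 and Nrp2. All 10 were found by their Ensembl identifiers, and all 10 passed the filter on low counts. Bulk RNA sequencing covered 3 adrenal samples labelled WT and 3 labelled VEGF/LysM, in a study asking how macrophage-derived VEGF-A affects the organ. No allele, Cre driver, strain, age or sex is given for either genotype. Nor is it stated that replicates are different animals, so each p reflects only how these samples vary, and that variation may be technical. A count per gene cannot show whether a part of Vegfa was missing from the RNA of one cell type, and it does not separate soluble from membrane-bound forms of Flt1.

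VEGF ligands are secreted dimers that act mainly on endothelial cells. VEGF-A binds the receptor kinases FLT1 and KDR. KDR carries most of its growth and permeability signal, while FLT1 binds it tightly and often acts as a sink. VEGF-B and PGF bind FLT1, whereas VEGF-C and VEGF-D bind FLT4, the main receptor of lymphatic vessels. In its processed form VEGF-C binds KDR as well. Neuropilins are co-receptors that also bind class 3 semaphorins. In endocrine glands such as the adrenal, VEGF-A from parenchymal cells is known to maintain fenestrated capillaries.

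Upstream sequences are shown for 3 members: Vegfa, the ligand whose level varied most between libraries, and Kdr and Flt1, the receptor pair with the highest correlation over the 6 libraries. Each stretch runs 5′ to 3′ up to the base before the outermost annotated start and comes from the RefSeq promoter table of GRCm38.p6. All 3 lie on the minus strand: Vegfa at chr17:46032378-46032627, Kdr at chr5:75978459-75978705 and Flt1 at chr5:147726012-147726261. Capitals mark the GC box GGGCGG or its reverse complement CCGCCC, and in Flt1 also the cyclic AMP response element TGACGTCA.
Vegfa: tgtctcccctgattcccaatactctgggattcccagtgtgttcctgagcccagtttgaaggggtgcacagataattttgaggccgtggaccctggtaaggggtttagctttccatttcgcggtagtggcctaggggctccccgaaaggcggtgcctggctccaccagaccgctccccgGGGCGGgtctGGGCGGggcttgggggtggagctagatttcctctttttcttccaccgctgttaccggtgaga
Kdr: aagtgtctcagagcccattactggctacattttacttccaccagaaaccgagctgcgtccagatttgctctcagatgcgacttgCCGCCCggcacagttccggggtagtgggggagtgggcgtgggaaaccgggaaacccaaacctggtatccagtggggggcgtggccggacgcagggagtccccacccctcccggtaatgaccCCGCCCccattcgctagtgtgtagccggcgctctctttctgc
Flt1: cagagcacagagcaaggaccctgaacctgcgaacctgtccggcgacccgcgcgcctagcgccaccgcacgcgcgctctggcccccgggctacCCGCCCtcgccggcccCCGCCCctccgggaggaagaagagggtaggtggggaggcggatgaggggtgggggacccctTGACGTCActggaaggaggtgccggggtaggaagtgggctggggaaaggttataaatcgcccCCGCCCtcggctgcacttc
The GC box, searched on both strands in the 250 bases before the outermost RefSeq start, was present for 9 of the 10 members and absent for Vegfd, against 32.7% of all 32851 windows in the table. The element TGACGTCA, which reads the same on both strands, was found in Flt1 alone among the members, against 1.55% of all windows. The hypoxia response core ACGTG was in none of the 10 windows, against 16.6% of all. These matches describe letters in short windows and say nothing of binding.

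The libraries held 16476879 to 18671950 counts, and members had 29 (Pgf) to 8507 (Vegfa) counts in a library. Marker genes of the adrenal cortex, such as Star and Cyp11b1, summed to 28232 to 53527 CPM (counts scaled to equal library totals, here adjusted between libraries by TMM), and those of the medulla to 3804 to 9478 CPM. WT replicate 3 stood apart: its hepatocyte markers, 8 genes, summed to 70314 CPM and its kidney tubule markers, 7 genes, to 35.3 CPM. VEGF/LysM replicate 3 had 251 and 3.30 CPM of the same lists, and the other 4 libraries 7.11 to 11.8 and 0.0515 to 0.341 CPM. Alb, the hepatocyte albumin gene, read 51376 CPM in WT replicate 3, 169 CPM in VEGF/LysM replicate 3 and 0.0569 to 1.06 CPM elsewhere. The cortex sum was lowest in WT replicate 3. Adipocyte markers, 8 genes such as Adipoq and Fabp4, summed to 2278 to 3216 CPM over the 6 libraries. The part of such RNA in the VEGF family values was not tested. Values without both replicates 3 are given beside the results below. In whole glands, fewer cells of a type and less RNA per cell cannot be told apart.

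Vegfa, Vegfb and Vegfd made up nearly all VEGF ligand transcripts of the libraries, which also held adipocyte RNA. To set genes side by side, counts were divided by the summed length of a gene's exons and scaled to the same total in each library, here called the per-kilobase level. On that scale Vegfa averaged 200.1 ± 85.5, Vegfb 140.1 ± 35.9, Vegfd 100.5 ± 37.6, Vegfc 11.1 ± 2.98 and Pgf 2.66 ± 0.933 (SD, n = 6 libraries). Among the 16300 genes tested, the mean level of Vegfa lay at the 95.7th percentile, Vegfb at the 93.4th, Vegfd at the 90.3rd, Vegfc at the 43.7th and Pgf at the 17.8th. Vegfa and Vegfb were not ordered beyond their spread: Vegfa was the higher in 4 of 6 libraries, and Vegfb in VEGF/LysM replicates 1 and 2. Vegfb exceeded Vegfd in 6 of 6 libraries, by 1.13 to 2.48 times, although their ranges over libraries overlapped. Vegfd exceeded Vegfc by 4.93 to 11.6 times and Vegfc exceeded Pgf by 3.10 to 7.51 times, with no overlap between the ranges. Leaving out both replicates 3 left the order of the 5 ligand means as it was. Vegfa was then at 167 and Vegfb at 159, and Vegfb remained the higher in VEGF/LysM replicates 1 and 2.

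Kdr led the receptors, with a per-kilobase level of 44.7 ± 8.44, followed by Nrp1 at 27.9 ± 6.47, Flt1 at 19.2 ± 4.81, Nrp2 at 18.3 ± 4.04 and Flt4 at 14.2 ± 2.25 (SD, n = 6 libraries). Their mean levels lay between the 49.4th percentile of tested genes (Flt4) and the 77.7th (Kdr). Kdr stood above Nrp1 in 6 of 6 libraries and Nrp1 above Flt1 in 6 of 6. Flt1 and Nrp2 could not be ordered, as Flt1 was the higher in 3 of 6 libraries, and Nrp2 exceeded Flt4 in 5 of 6. The place of Kdr rested on the choice of length. With the longest annotated transcript in place of all exons, Nrp1 averaged 59.9 and Kdr 54.5, and Kdr was the higher in 3 of 6 libraries. Without both replicates 3 the receptor order by all exons was the same.

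**Figure D1:**
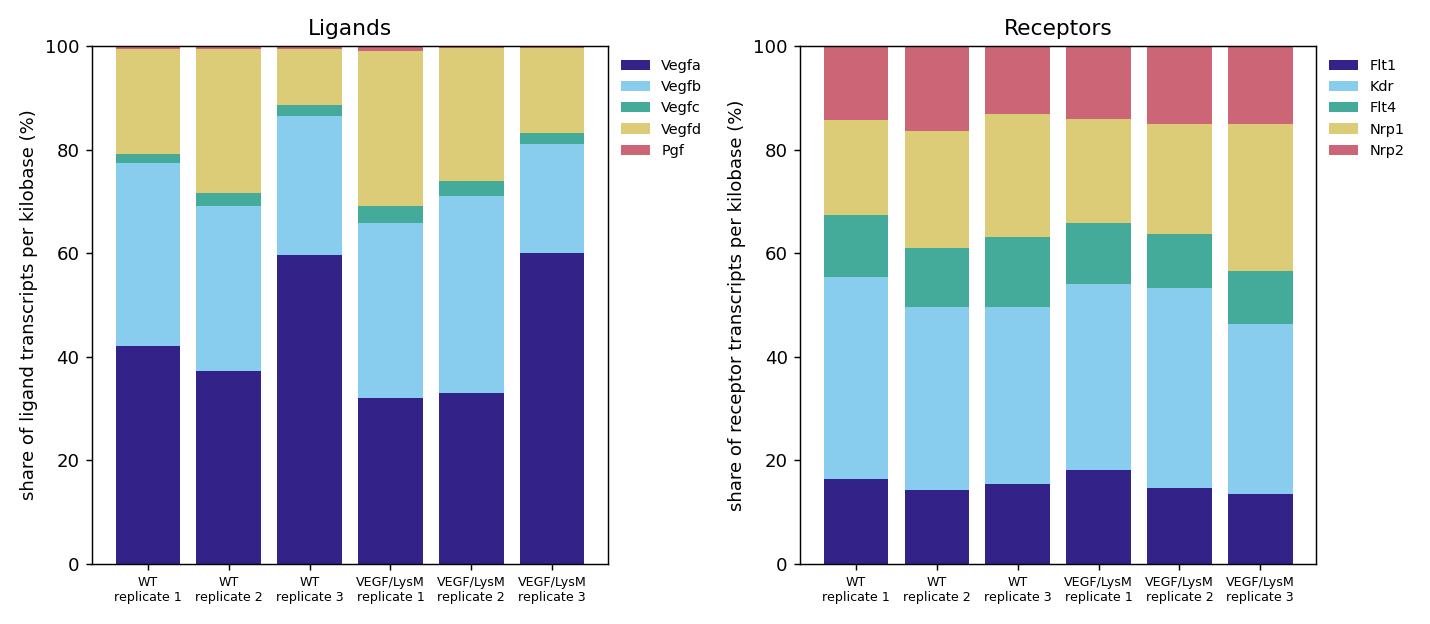
Share of each ligand (left) and receptor (right) in the summed per-kilobase level of its class, in percent, for the 6 libraries; each bar adds up to the whole class. Vegfa took 59.6% and 60.0% of ligand transcripts in the replicates 3 and 31.9% to 42.1% in the other libraries, while the receptor shares differed less.

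The ligand mix differed between libraries more than the receptor mix. Vegfa held 42.1%, 37.2% and 59.6% of ligand transcripts per kilobase in WT replicates 1 to 3, and 31.9%, 33.0% and 60.0% in VEGF/LysM replicates 1 to 3. Both replicates 3 thus had the largest share of Vegfa among ligands, one in each group, but with different ligand levels. In WT replicate 3 Vegfb (55.9 CPM) and Vegfd (33.9 CPM) were at their lowest. Vegfa read 332 CPM there on TMM-scaled CPM, against 295 and 241 CPM in WT replicates 1 and 2. Per kilobase the order differed, with Vegfa at 167 in WT replicate 3 against 211 and 185. In VEGF/LysM replicate 3 Vegfa read 501 CPM, Vegfb 65.8 CPM and Vegfd 76.7 CPM. Kdr held 32.9% to 39.0% of receptor transcripts and Flt1 13.4% to 18.2% over all 6 libraries. Nrp1 had its largest share, 28.5%, in VEGF/LysM replicate 3, against 18.5% to 23.6% elsewhere.

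No member of the family passed the test between the genotypes. Of the 10 members 0 were called by edgeR's quasi-likelihood fit, as were 0 of 16300 genes (0.00%; smallest adjusted p 0.999). Unadjusted, 0 members and 459 genes (2.82%) were under 0.05, and DESeq2 and limma-voom also called 0 members. Of the 10 log2 fold changes, taken as VEGF/LysM minus WT, 7 were above 0, with a median of 0.16, against 50.3% of genes above 0 and a median of 0.0013 over the whole table. For 1 member, Vegfc, the libraries of one genotype lay wholly above those of the other, against 5.95% of genes (3.54% higher and 2.41% lower in VEGF/LysM). Without both replicates 3, edgeR again called 0 members and 0 of 16337 genes (0.00%), and 6 of 10 members were above 0, against 50.1% of genes.

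**Figure D2:**
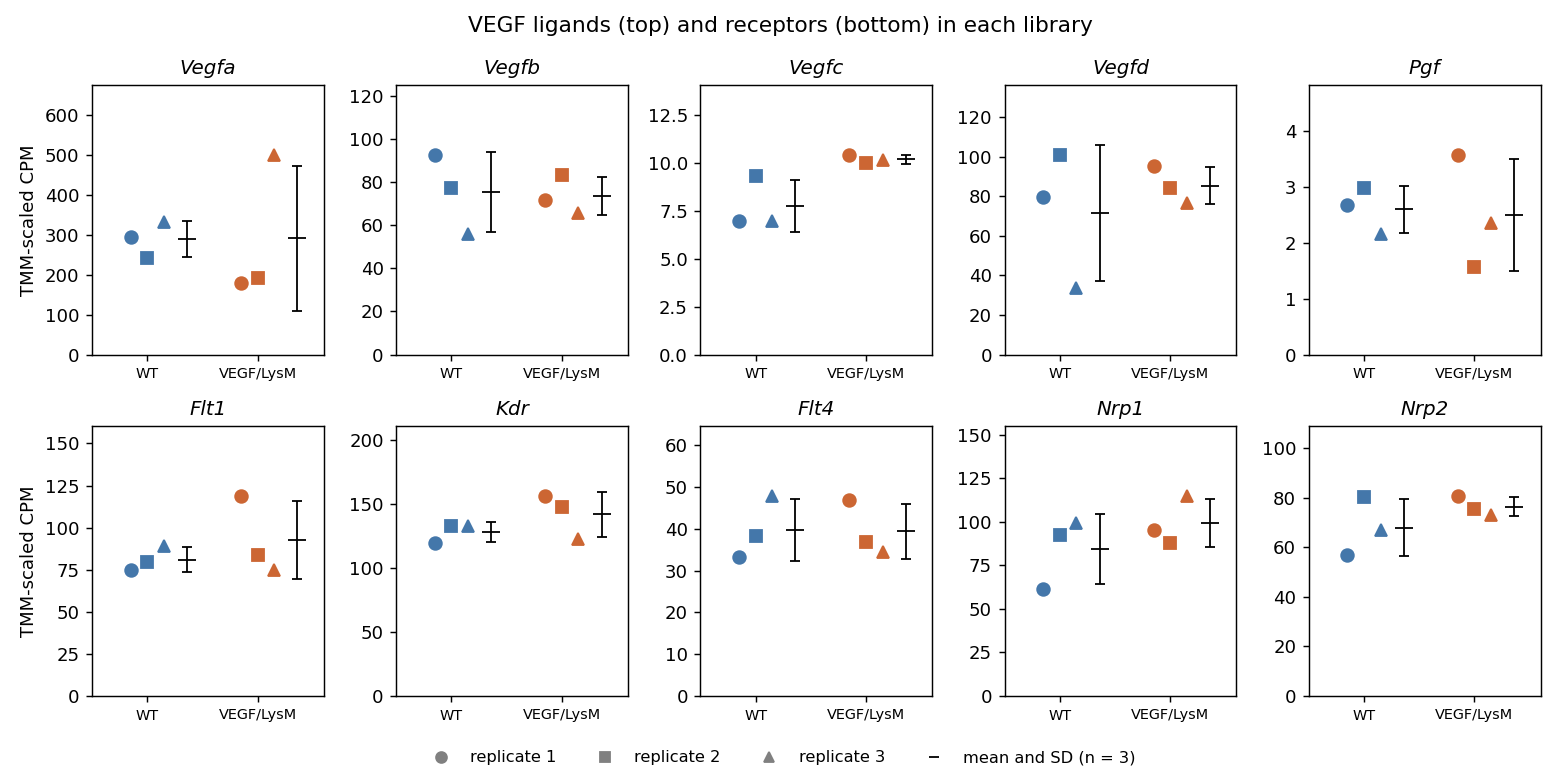
TMM-scaled CPM of the 10 genes in each library, ligands above and receptors below, with symbols for the replicate number and the mean and SD of 3 libraries beside each group; every axis starts at 0. Vegfa of VEGF/LysM replicate 3 (501 CPM) and Vegfd of WT replicate 3 (33.9 CPM) stand far from the rest of their groups.

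Vegfa, the ligand the groups are named for, was lower than in any WT library in 2 VEGF/LysM libraries and higher than in any WT library in the other. It lies on chromosome 17 (46016993 to 46032369, minus strand, GRCm38) and has 13 annotated transcripts. Vegfa measured 295, 241 and 332 CPM in WT replicates 1 to 3, while the VEGF/LysM replicates measured 180, 193 and 501 CPM. The log2 fold change was 0.0095 ± 0.41 (SE), with a 95% interval of -0.96 to 0.98 and an adjusted p of 0.999 in edgeR's test. Without both replicates 3 the values were 295 and 241 against 180 and 193 CPM, which do not overlap, as for 28.2% of the 16337 genes tested there (13.8% lower in VEGF/LysM). In edgeR's test the difference on the log2 scale was then -0.52 (95% interval -0.89 to -0.15), with an unadjusted p of 0.0123 and an adjusted p of 0.9997. Vegfa was the 1 member with an unadjusted p under 0.05 in that fit, against 2.31% of genes. Without VEGF/LysM replicate 3 alone the log2 fold change was -0.63, without WT replicate 3 alone it was 0.12, and without WT replicate 2 it was -0.11. The sign over all 6 libraries was thus not settled.

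Levels of several other transcripts moved with Vegfa over the 6 libraries. A list of 12 immediate early genes, written after the values were seen, summed to 2229, 981 and 1925 CPM in WT replicates 1 to 3 and to 842, 1136 and 3821 CPM in VEGF/LysM replicates 1 to 3. The sum was highest where Vegfa was highest and lowest where Vegfa was lowest. Pearson's r of the log2 values was 0.94 over 6 libraries and 0.83 over the 4 without both replicates 3. As the list was written with the values known, its r is not an independent test. Over those 4 libraries other sums had a higher r with Vegfa: 0.94 for lymphocyte, 0.86 for erythrocyte and 0.85 for pan-endothelial markers. Over all 6 libraries these were 0.076, 0.32 and -0.63. Nr4a1, a nuclear receptor gene induced within minutes by ACTH in adrenal cells, read 959, 364 and 895 CPM in WT and 137, 301 and 1633 CPM in VEGF/LysM. A list of 4 transcripts kept largely in the nucleus or spliced late (Malat1, Neat1, Clk1, Clk4) was also written after the values were seen. Its sum had r = 0.94 with Vegfa over 6 libraries and 0.74 over the 4 without both replicates 3. The list holds Clk4, which is itself among the genes most like Vegfa over the 6 libraries (r = 0.98). The r of this list is thus not an independent test. The sum of the list was highest, at 2901 CPM, in VEGF/LysM replicate 3, against 1162.5 to 1858 CPM elsewhere. By contrast 11 hypoxia target genes, also listed after the values were seen, had r = 0.032 with Vegfa and summed to 1062 CPM in VEGF/LysM replicate 3, within the 1048 to 1939 CPM of the other libraries. The medulla markers, 7 genes, were also highest in VEGF/LysM replicate 3 (9478 CPM against 3804 to 6968 CPM), while the macrophage markers, 12 genes, read 674 CPM there against 502 to 786 CPM elsewhere. The part of these transcripts in the Vegfa values was not tested.

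**Figure D3:**
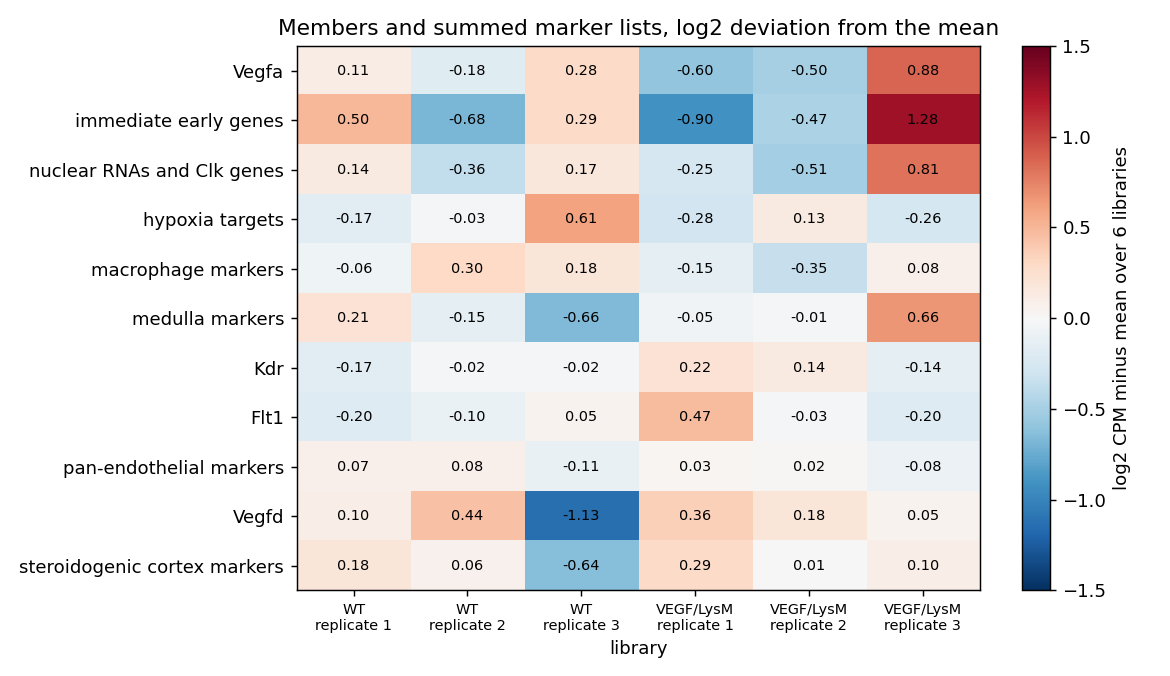
Log2 CPM of 4 members and of summed gene lists in each library, minus the mean over the 6 libraries; red is above and blue below that mean. The row of the immediate early genes follows that of Vegfa, from -0.905 in VEGF/LysM replicate 1 to 1.28 in VEGF/LysM replicate 3, and Vegfd is lowest in WT replicate 3 (-1.13), as is the cortex sum (-0.64).

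Vegfb, which binds FLT1 and is known from tissues with high oxidative metabolism, read 92.6, 77.4 and 55.9 CPM in WT and 71.5, 83.1 and 65.8 CPM in VEGF/LysM. The VEGF/LysM values lay within the WT range, and the log2 fold change was -0.036 with a 95% interval of -0.52 to 0.45 (-0.13 without both replicates 3). Pgf, placental growth factor, rested on 29 to 61 counts a library and had an interval of -0.96 to 0.83, around -0.063 (-0.14 without both replicates 3).

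Vegfc, the main growth factor of lymphatic vessels, was the 1 member whose groups did not overlap. It read 6.99, 9.33 and 6.98 CPM in WT and 10.4, 9.99 and 10.2 CPM in VEGF/LysM, higher in 3 of 3 VEGF/LysM libraries than in any WT library. The log2 fold change of Vegfc was 0.39 ± 0.22 (SE), with a 95% interval of -0.12 to 0.91 and an adjusted p of 0.999 in edgeR's test. Without both replicates 3 it was 0.33, with an interval of -0.25 to 0.91. Adamts3, the protease that cleaves the VEGF-C precursor, read 2.96, 5.72 and 2.15 CPM in WT and 7.15, 6.20 and 7.65 CPM in VEGF/LysM. Adamts3 differed by 0.95 ± 0.39 (SE) on the log2 scale and did not pass either (edgeR adjusted p = 0.999). That difference was 0.62 without both replicates 3.

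Vegfd, the other FLT4 ligand, was low in a single library. It read 79.6, 101 and 33.9 CPM in WT and 95.3, 84.0 and 76.7 CPM in VEGF/LysM. The log2 fold change of Vegfd was 0.26 with a 95% interval of -0.61 to 1.12, and without both replicates 3 it was -0.0028 with an interval of -0.39 to 0.38. Without WT replicate 3 alone it was -0.085. In WT replicate 3 the 8 cortex markers summed to 28232 CPM against 44062 to 53527 CPM elsewhere, and the 6 zona glomerulosa markers to 635 CPM against 949 to 1368 CPM. Their part in the Vegfd value was not tested.

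The receptor kinases Kdr and Flt1 were slightly higher on average in VEGF/LysM, within the spread between libraries. Kdr, on chromosome 5 (75932827 to 75978458), read 119, 132 and 132 CPM in WT and 156, 148 and 122 CPM in VEGF/LysM. The log2 fold change of Kdr was 0.15 ± 0.14 (SE), with a 95% interval of -0.19 to 0.49. On the TMM-scaled CPM its coefficient of variation over the 6 libraries was 10.6%, the lowest of the 10 genes, against 40.8% for Vegfa. Flt1, on the same chromosome (147561604 to 147726011), read 74.6, 79.6 and 88.9 CPM in WT and 119, 84.0 and 74.7 CPM in VEGF/LysM. Its high value came from VEGF/LysM replicate 1, and leaving it out turned the log2 difference from 0.19 to -0.047. Without both replicates 3 the log2 fold changes were 0.28 for Kdr (95% interval -0.049 to 0.61) and 0.40 for Flt1 (-0.034 to 0.84). The VEGF/LysM values of both genes then lay above the WT values, as did those of Vegfc, so that 4 members with Vegfa did not overlap, against 28.2% of genes.

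Flt4, the lymphatic receptor kinase, averaged 39.8 ± 7.39 CPM in WT and 39.4 ± 6.55 CPM in VEGF/LysM (SD, n = 3), with a 95% interval of the log2 fold change of -0.48 to 0.45 (0.23 without both replicates 3). Its libraries ran from 33.3 CPM in WT replicate 1 to 47.8 CPM in WT replicate 3, so the groups overlapped throughout. Of 6 lymphatic markers beside it, 5 were tested, and the sum of the 6 was highest in the same library (129 CPM against 62.0 to 106 CPM elsewhere). Prox1 alone gave 63.9 CPM of that sum, and 93.3 CPM in VEGF/LysM replicate 3. WT replicate 3 is also the library with 70314 CPM of hepatocyte markers. The part of that other tissue in the lymphatic sum was not tested. The 5 tested markers did not move together. Their log2 fold changes ran from -2.72 for Mmrn1 (adjusted p = 0.999 in edgeR's test) to 0.49 for Prox1, with 2 above 0 and 3 below. The part of these markers in the Flt4 values was not tested.

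Both neuropilins, like the receptor kinases, were lowest in WT replicate 1 on TMM-scaled CPM. Nrp1 read 61.2, 92.1 and 99.1 CPM in WT and 95.3, 88.01 and 115 CPM in VEGF/LysM. The groups overlapped, and the difference on the log2 scale was 0.24 (95% interval -0.26 to 0.74). Without WT replicate 1 the difference was 0.057, and without both replicates 3 it was 0.26. Nrp2 read 57.0, 80.2 and 66.9 CPM in WT and 80.7, 75.5 and 73.2 CPM in VEGF/LysM, with 0.17 and an interval of -0.20 to 0.54. Without WT replicate 1 the log2 fold change of Nrp2 was 0.058, and without both replicates 3 it was 0.19. On TMM-scaled CPM, WT replicate 1 held the lowest value of 5 of the 10 members, which were the 5 receptors, against 19.8% of all genes tested. For Flt1 the margin was small (74.55 CPM against 74.68 CPM in VEGF/LysM replicate 3). The lowest library changed with the scale. Per kilobase, Kdr (31.6), Flt1 (14.2) and Nrp2 (12.2) were lowest in WT replicate 3, against 40.5, 16.9 and 14.7 in WT replicate 1. Nrp1 and Flt4 stayed lowest in WT replicate 1. Without WT replicate 1 the log2 fold changes of Kdr, Flt1 and Flt4 were 0.10, 0.14 and -0.13.

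**Figure D4:**
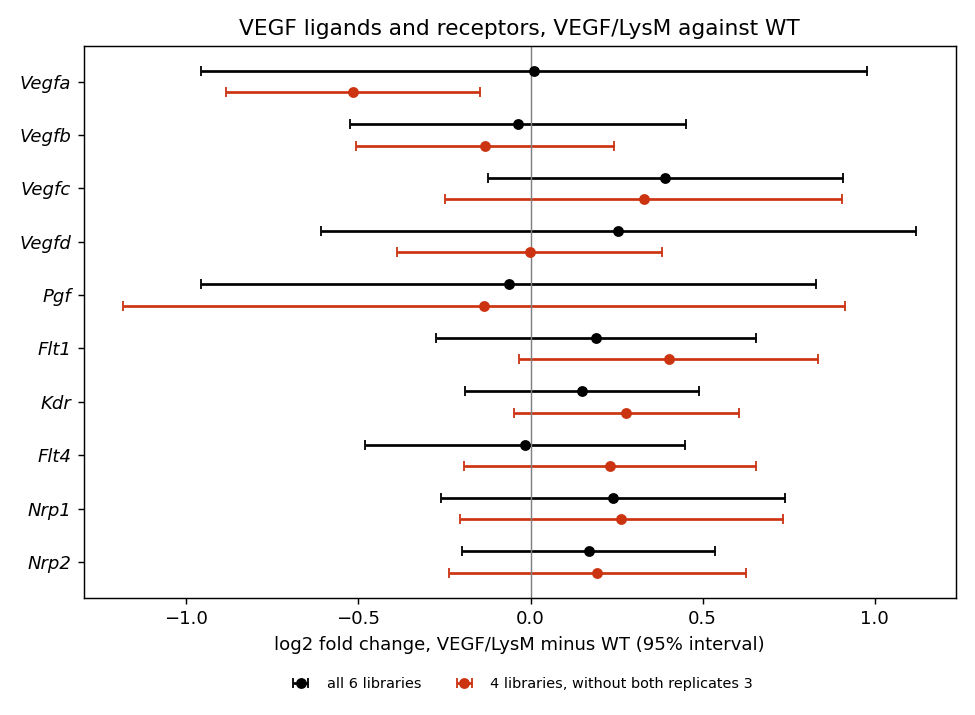
Log2 fold changes (VEGF/LysM minus WT) with 95% intervals from edgeR for the 10 genes, over all 6 libraries in black and over the 4 libraries without both replicates 3 in red. All black intervals include 0, and in red the interval of Vegfa (-0.89 to -0.15) does not.

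Receptor levels were also set against the endothelial RNA of each library. The 14 pan-endothelial markers, Pecam1 and Cdh5 among them, summed to 822, 824 and 725 CPM in WT and to 799, 792 and 739 CPM in VEGF/LysM. The log2 ratio of Kdr to that sum was -2.78, -2.64 and -2.45 in WT and -2.36, -2.42 and -2.60 in VEGF/LysM, a difference of 0.17 (two-sided exact permutation test, p = 0.2). The differences were 0.19 for Flt1, 0.011 for Flt4, 0.28 for Nrp1 and 0.21 for Nrp2, with groups that overlapped for each. They were, without both replicates 3, 0.32 for Kdr, 0.42 for Flt1, 0.27 for Flt4, 0.34 for Nrp1 and 0.26 for Nrp2. Of 5 further ratios, only Vegfa over the other ligands was taken per kilobase. The rest used CPM with no length correction, so their size is not a ratio of per-kilobase levels. Vegfa to the sum of Kdr and Flt1 stood at 1.52, 1.14 and 1.5 in WT and 0.656, 0.831 and 2.54 in VEGF/LysM. Its log2 difference of -0.30 became -0.83 without both replicates 3. The difference of Vegfa over the other ligands went from -0.29 to -0.45 and that of Nrp1 over Kdr from 0.12 to 0.013. Flt1 over Kdr went from 0.023 to 0.10, and Nrp1 over Nrp2 was 0.079 and 0.078. On CPM, Flt1 to Kdr stayed between 0.568 and 0.760 in the 6 libraries. Over the 10 ratios tested, the smallest exact permutation p was 0.2 and the smallest after Benjamini-Hochberg adjustment 0.857. With 3 against 3 libraries this test cannot give a p below 0.1.

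Across the 6 libraries Flt1 and Kdr had the highest correlation of any receptor pair (r = 0.84 of log2 CPM), and Kdr ran against Vegfa (r = -0.82). Over the 4 libraries without both replicates 3 these were 0.83 and -0.998, and the order changed: Nrp1 with Nrp2 had 0.998 (0.68 over 6 libraries) and Flt1 with Flt4 0.957 (0.81). These values describe 6 libraries that also differ in tissue content. The 5 genes most like Vegfa, among 10515 with a mean of at least 10 CPM, were Dalrd3, Mir22hg, Ubp1, Clk4 and Flt3l (r = 0.98 to 0.99), and 144 genes had r above 0.9. Those most like Kdr were Prkar2b, Fzd5, Snx12, Mturn and Ttc37 (r = 0.97 to 0.99), with 54 genes above 0.9. Over the 4 libraries without both replicates 3, other genes led, among them Crtc2, 2700081O15Rik, Mgat4a and Rpl21-ps15 for Vegfa and Cblb, Ube2g1, Ganab, Lonrf1 and mt-Co1 for Kdr. Of 10241 genes compared there, 486 and 813 had r above 0.9.

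Other genes of the pathway were taken from 5 lists with 84 genes, all of them tested. edgeR called 0 of the 84, with 43 log2 fold changes above 0, 41 below and a median of 0.0033. In the fit without both replicates 3, 83 were tested and 0 called, with 53 above 0, 30 below and a median of 0.064. The groups did not overlap for Adamts3 and Akt1, 2 of 84, against 5.95% of all genes tested. Semaphorins and plexins, the partners of neuropilins, had 6 of 13 above 0 and a median of -0.01. Their smallest p belonged to Plxna1, a semaphorin receptor (log2 fold change 0.32), and Sema3e, a plexin ligand of 5 to 26 counts (-0.62). These became 0.059 and -0.14 without both replicates 3. Signalling genes below the receptors had 15 of 27 above 0, with Sh2d2a, an adaptor of T cells and KDR, at -2.26 and Epn1, an endocytic adaptor, at -0.38. Epn1 was highest, at 259 CPM, in WT replicate 3, against 146 to 185 CPM in the others. With both replicates 3 left out, the differences were -0.22 and -0.14. Without WT replicate 3 alone Sh2d2a turned to 0.26. Sh2d2a had 212 counts in WT replicate 3 and 10 to 33 in the other libraries, while the lymphocyte markers, 7 genes, summed to 1011 CPM in that library and 60.9 to 268 CPM elsewhere; their part in the Sh2d2a value was not tested.

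Genes that bind or process VEGF outside the cell had 10 of 15 above 0 and a median of 0.20. Beside Adamts3, their smallest p belonged to Ccn2, a matrix protein that binds VEGF-A (log2 fold change 0.44, with its lowest value, 33.0 CPM, in WT replicate 3, and 0.18 without both replicates 3). Endothelial response genes of VEGF, such as Esm1 and Dll4, had 5 of 13 above 0 and a median of -0.01. Ets1, an endothelial and lymphoid transcription factor, was at -0.65, and Rcan1, a calcineurin inhibitor, at -0.29. Ets1 also stood apart in WT replicate 3, at 113 CPM against 34.7 to 44.9 CPM elsewhere. Ets1 was at 0.089 and Rcan1 at -0.12 without both replicates 3. Regulators of Vegfa transcription and mRNA decay had 7 of 16 above 0 and a median of -0.07, with the oxygen sensors Egln2 at -0.26 and Egln3 at -0.70. Egln3 was highest, at 18.7 CPM, in WT replicate 3, against 4.05 to 8.73 CPM in the others. Egln2 was at -0.14 and Egln3 at -0.065 without both replicates 3.

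Lyz2, the myeloid lysozyme gene also called LysM, read 186, 275 and 263 CPM in WT and 132, 111 and 134 CPM in VEGF/LysM. Those libraries did not overlap, with a log2 difference of -0.94 ± 0.19 (SE), but Lyz2 did not pass in edgeR's test (adjusted p = 0.999). The difference of Lyz2 was -0.92 without both replicates 3. The macrophage markers that include it summed to 612, 786 and 721 CPM in WT and 576, 502 and 674 CPM in VEGF/LysM, so the sums overlapped. Lyz2 supplied part of these sums. Of the 12 markers, 6 log2 fold changes were above 0 and 6 below, with a median of 0.00031.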

How the data were processed

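Adrenal RNA from WT and VEGF/LysM mice, 3 samples each, was made into Smart-seq2 libraries, per the labels' protocols, a method that does not mark strand. The deposited table gives raw whole-number counts for each gene. The submitters' processing notes name kallisto, DESeq2 1.36.0 and mm10, and neither their roles nor the gene annotation is given in the sources used here. No exons of the 10 genes overlapped those of a gene with counts. Columns were matched to samples by title, and no library pair was identical.

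Counts were filtered with filterByExpr (at least 10 counts, and 15 in total), leaving 16300 genes, and TMM factors were computed (0.840 in WT replicate 3, 1.02 to 1.05 elsewhere). Genotype was the single term of a quasi-likelihood fit in edgeR 4.0.16 (R 4.3.3). Benjamini-Hochberg adjustment covered the whole table, at a threshold of 0.05, and standard errors and 95% intervals come from the model. Lengths are from GENCODE M21 (GRCm38), symbols from its gene table (54409 of 54532 identifiers), and promoter windows from RefSeq, matched by symbol for 10 of 10 genes. The steps were tested on simulated counts that varied less between libraries than these data, where edgeR's common coefficient of variation was 0.365. That test checks the steps and does not show how large a difference could be found here. Alternatives were other scalings and filters, DESeq2 1.42.0, limma-voom (limma 3.58.1), a replicate block and each library left out.

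The members and lists were chosen with earlier results of these data known, and 3 lists (immediate early, hypoxia, nuclear) after the values were seen. Named genes are the members, Pecam1, Cdh5, Lyz2, Alb, the 2 of smallest p in each pathway list and the 5 most like Vegfa and Kdr (prior count 2 for log2 CPM), of which 1 is not reported here; Akt1 and others outside this rule were named after their values were seen.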

Additional observations from a re-analysis of the deposited data

How the results depend on the processing

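No member was called under any alternative run. Over all genes, DESeq2 called 3 (Mup-ps19, Gm16157 and Adgrf1, each with counts only in WT replicate 3), and edgeR called 0 to 1 with a library left out (Sumo2, without WT replicate 3). All 4 were named after their values were seen. Without both replicates 3 Flt1 moved to 0.40 and the ratio of Flt4 to the endothelial sum to 0.27. The direction of Vegfa turned with DESeq2 size factors in edgeR (-0.0022), DESeq2 (-0.0013), limma-voom (-0.15), a replicate block (-0.15) and without both replicates 3 (-0.52). Vegfb turned with library size only (0.0083), Vegfd without both replicates 3 (-0.0028), and Flt4 with upper-quartile scaling (0.021), library size only (0.076) and without both replicates 3 (0.23).

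With a library left out, log2 fold changes ran from -0.63 to 0.24 for Vegfa, -0.21 to 0.14 for Vegfb, -0.085 to 0.59 for Vegfd, -0.43 to 0.17 for Pgf, -0.047 to 0.32 for Flt1 and -0.17 to 0.13 for Flt4. Vegfc (0.32 to 0.55), Kdr (0.059 to 0.25), Nrp1 (0.057 to 0.37) and Nrp2 (0.058 to 0.31) kept their direction. The log2 ratios, VEGF/LysM minus WT, ran from -0.14 to 0.21 for Flt4 over the endothelial sum, -0.84 to 0.099 for Vegfa over the other ligands, -0.10 to 0.11 for Flt1 over Kdr, -0.060 to 0.22 for Nrp1 over Nrp2, -0.095 to 0.23 for Nrp1 over Kdr and -0.90 to 0.082 for Vegfa over Kdr plus Flt1. Flt4 over the endothelial median was -0.080.

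By the longest transcript Nrp1 ranked 1 and Kdr 2 among receptors, and by CPM with no length Vegfd ranked 2 and Vegfb 3 among ligands. With a library left out, Flt1 and Nrp2 ranked 3 to 4. Correlations of the deviations of same-numbered libraries were 0.064, -0.014 and 0.25 for replicates 1, 2 and 3. Not every pair deviated together, so the numbers were not taken as pairs, and the replicate block called 0 genes. Few reads limit Pgf, at 29 to 61 counts. The causes were not tested.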
